A study of Mus musculus with 5 samples.

Results

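The 7 genes described here encode the enzymes that write, copy and remove DNA methylation in mouse embryonic stem cells: Dnmt1, Uhrf1, Dnmt3a, Dnmt3b, Dnmt3l, Tet1 and Tet2. They were taken by gene symbol from the platform's probe annotation, out of 19937 genes with a symbol of their own, and are covered by 9 probe sets: 3 for Tet1 and 1 for each of the other 6. All 7 lay above the level filter of 5.76 (the median of the mean log2 signals of all probe sets), which kept 11502 genes. The rule that chose the members uses gene symbols and no measured value, but the members were chosen with earlier results of these data known.

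The measurements come from RNA immunoprecipitation on microarrays (RIP-chip) in R1 cells, a male 129X1 x 129S1 line derived from the inner cell mass of the blastocyst. All cells carried a G418 resistance and were grown without feeders, on gelatin in LIF with 15% serum, after an earlier passage on mouse embryonic fibroblasts. One line constitutively expressed the pCAGGS::FLAG:MKRN1 fusion protein, with an N-terminal FLAG tag, and the other the pCAGGS::FLAG:Ctrl construct without MKRN1; the labels call them clones and do not say how many were used. There were 5 arrays of 1 sample each: input RNA of either lysate, RNA recovered from either lysate with anti-FLAG antibody, and RNA recovered with IgG from the FLAG:MKRN1 lysate. The FLAG:Ctrl RIP and the IgG RIP are called the 2 control RIPs. With 1 array per group no value has a replicate error and no test was possible, so each difference below compares arrays, not conditions.

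DNA methylation in mammals sits mostly on cytosines of CpG dinucleotides. Dnmt3a and Dnmt3b place it on unmethylated DNA, Dnmt3l lacks catalytic activity and stimulates them, and Dnmt1 copies it onto the new strand after replication, brought to hemimethylated sites by Uhrf1. Tet1 and Tet2 oxidise 5-methylcytosine, the first step of active removal. Embryonic stem cells grown in serum and LIF are known for high genome methylation and for expressing both sets of enzymes, so the values below ask how the RNAs of opposed activities were represented in the lysates and in each RIP.

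Signals showed these RNAs in every lysate. The 10 stem cell markers, Pou5f1 and Nanog among them, ranged from 7.65 to 13.6 on the 2 input arrays. Klf4 differed most of them between the inputs, at 8.82 with FLAG:Ctrl and 7.65 with FLAG:MKRN1. It was the 1 stem cell marker at least 2-fold lower with FLAG:MKRN1, where 0.791% of kept genes were. Of 10 fibroblast feeder markers, 5 were below the level filter (Dcn, Lum, Postn, Pdgfrb and Acta2). The median over the 10 feeder markers was 5.92 in the FLAG:Ctrl input, 5.55 in the FLAG:MKRN1 input and between 5.54 and 5.70 in the RIPs. Thy1 was the brightest of them, at 9.88 and 8.89 in the FLAG:Ctrl and FLAG:MKRN1 inputs, and it is not restricted to fibroblasts. Differentiated lineages were followed by 9 genes, of which Pax6 differed most between the inputs, at 6.41 with FLAG:Ctrl and 7.57 with FLAG:MKRN1. Pax6 was the 1 lineage gene at least 2-fold higher with FLAG:MKRN1, where 0.878% of kept genes were. The part of these markers in the results was not tested. Mkrn1 itself was 11.80 in the FLAG:Ctrl and 11.71 in the FLAG:MKRN1 input, so the array did not separate the lines by it; the anti-FLAG RIP of the FLAG:MKRN1 line is therefore called the MKRN1-labelled RIP, and any direction drawn from it rests on that label. The 2 control RIPs differed by an SD of 0.243 (log2) over the kept genes, which serves as a scale for the differences below. It is a spread over genes and not a replicate error. The same SD was wider for the MKRN1-labelled RIP, at 0.571 from the FLAG:Ctrl RIP, 0.55 from the IgG RIP and 0.567 from its input.

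Between the 2 inputs, Dnmt3l and Tet1 differed in opposite directions. Their promoters are shown because of that contrast, as the 250 bases before the first start listed by RefSeq (build GRCm38.p6), read 5′ to 3′ on the gene's strand with every CpG in capitals. RefSeq's table lists 1 start for Tet1 and 3 for Dnmt3l, and which start these cells use was not measured, so the counts below are those of 1 window per gene. The Tet1 stretch is chr10:62887325-62887574 on the minus strand and the Dnmt3l stretch chr10:78042037-78042286 on the plus strand.
Tet1: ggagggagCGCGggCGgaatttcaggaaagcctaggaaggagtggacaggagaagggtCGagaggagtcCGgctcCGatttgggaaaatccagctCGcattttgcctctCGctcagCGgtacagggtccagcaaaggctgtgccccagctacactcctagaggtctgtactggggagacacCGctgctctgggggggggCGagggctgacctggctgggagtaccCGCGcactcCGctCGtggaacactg
Dnmt3l: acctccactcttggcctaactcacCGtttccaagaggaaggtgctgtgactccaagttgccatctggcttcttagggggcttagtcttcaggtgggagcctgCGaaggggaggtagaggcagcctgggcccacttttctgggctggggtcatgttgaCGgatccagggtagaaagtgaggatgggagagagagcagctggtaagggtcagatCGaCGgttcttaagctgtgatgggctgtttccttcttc
The Tet1 stretch holds 15 CpGs and the Dnmt3l stretch 5, against a median of 6 over the same window of 27025 genes. At least 15 CpGs were found in 27.5% of those genes and at least 5 in 55.5%. The other members ranged from 2 CpGs for Dnmt1, for which 3 starts are listed, to 51 for Tet2, a number reached by 0.0703% of genes. The GC box GGGCGG, searched on both strands, was present for 5 members and absent from the windows of Dnmt1 and Dnmt3l; 32.9% of genes had it. Promoter methylation was not measured here, and letters in a window say nothing of it.

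The maintenance genes came first by role. Dnmt1, the maintenance methyltransferase gene, had log2 signals of 10.69 in the FLAG:Ctrl input, 10.62 in the FLAG:MKRN1 input, 10.82 in the FLAG:Ctrl RIP, 10.81 in the IgG RIP and 9.94 in the MKRN1-labelled RIP. Its other arrays lay close together and the MKRN1-labelled RIP lay below them all. That RIP was 1.84-fold below the FLAG:Ctrl RIP (log2 difference -0.88), 1.83-fold below the IgG RIP (-0.87) and 1.60-fold below its own input (-0.68).

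Uhrf1, whose protein reads hemimethylated CpG and recruits Dnmt1, had signals of 10.45 and 10.31 in the FLAG:Ctrl and FLAG:MKRN1 inputs, 10.41 in the FLAG:Ctrl RIP, 10.28 in the IgG RIP and 9.83 in the MKRN1-labelled RIP. The order of arrays was the same at the bottom, with a smaller gap than for Dnmt1. Uhrf1 was 1.49-fold below the FLAG:Ctrl RIP, 1.36-fold below the IgG RIP and 1.39-fold below its input in the MKRN1-labelled RIP. Among all kept genes its differences from the control RIPs lay at the 19.1th and 23.6th percentiles, against the 9.44th and 9.27th for Dnmt1.

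The de novo methyltransferase genes Dnmt3a and Dnmt3b had nearly the same pattern. Dnmt3a was 9.67 in the FLAG:Ctrl input, 9.65 in the FLAG:MKRN1 input, 9.68 in the FLAG:Ctrl RIP, 9.65 in the IgG RIP and 8.82 in the MKRN1-labelled RIP. Dnmt3b was 9.41, 9.35, 9.43, 9.35 and 8.59 on the same arrays in that order. The remaining arrays lay close together for both genes, with the MKRN1-labelled RIP apart from them. With each profile centred on its own mean, Dnmt3a and Dnmt3b differed by a root mean square of 0.027 (log2) over the 5 arrays, the smallest of the 21 pairs of members. In the MKRN1-labelled RIP, Dnmt3a was lower than in the control RIPs, 1.81-fold (FLAG:Ctrl) and 1.77-fold (IgG). Dnmt3b was 1.78-fold and 1.69-fold lower. The value of Dnmt3a was identical in the FLAG:MKRN1 input and the IgG RIP (within 1e-06); such equal values occurred for 6.77% to 19.2% of kept genes, depending on the pair of arrays, and the processing step behind them was not given.

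Dnmt3l, which encodes the cofactor without catalytic activity, did not follow its partners. It was 9.63 in the FLAG:Ctrl input, 8.93 in the FLAG:MKRN1 input, 9.92 in the FLAG:Ctrl RIP, 9.43 in the IgG RIP and 9.26 in the MKRN1-labelled RIP. Both arrays of FLAG:Ctrl lysate were above all 3 arrays of FLAG:MKRN1 lysate, and the lowest array was an input, not the MKRN1-labelled RIP. The FLAG:MKRN1 input was 1.62-fold below the FLAG:Ctrl input (-0.70), at the 2.62th percentile of all kept genes. Between the control RIPs the FLAG:Ctrl lysate was 1.41-fold higher (0.49), at the 97.6th percentile, though these RIPs differ in antibody as well as in lysate. Dnmt3l in the MKRN1-labelled RIP was 1.58-fold lower than in the FLAG:Ctrl RIP. It was 1.13-fold lower than in the IgG RIP, a log2 difference of -0.17 that turned to 0.117 after quantile normalization and to 0.174 with the trend with signal level removed. It was the 1 member above its own input in all 3 RIPs, by 0.33 in the MKRN1-labelled RIP, 0.29 in the FLAG:Ctrl RIP and 0.50 in the IgG RIP; 20.3% of kept genes were. Uhrf1 and Tet1 were below their own input in all 3 RIPs, as were 9.9% of kept genes. For Uhrf1 the differences were only -0.04 in the FLAG:Ctrl RIP and -0.03 in the IgG RIP, within the SD of 0.243. They became 0.045 and 0.041 with each array centred on its median over all probe sets. For Tet1 the statement holds for sets 1 and 3, while set 2 was 0.06 above its input in the FLAG:Ctrl RIP.

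**Figure D1:**
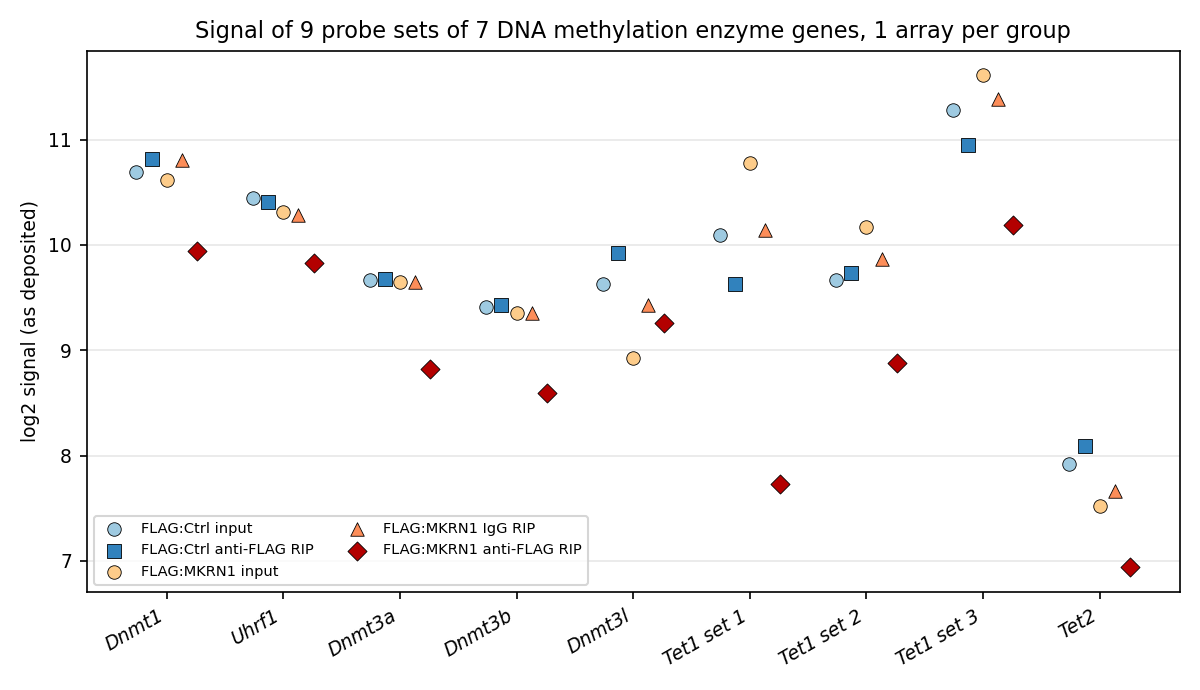
Log2 signal of each of the 9 probe sets of the 7 genes on the 5 arrays; each point is 1 array, and the Tet1 sets are numbered as in the text. The MKRN1-labelled RIP (dark red diamonds) is the lowest point of every probe set except that of Dnmt3l, from 10.19 for set 3 of Tet1 to 6.94 for Tet2.

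Tet1, the main methylcytosine oxidase gene of embryonic stem cells, was measured by 3 probe sets that were all lowest in the MKRN1-labelled RIP and differed in size. The brightest, used for gene-level values and called set 3 (probe set 10369702), was 11.28 in the FLAG:Ctrl input, 11.61 in the FLAG:MKRN1 input, 10.95 in the FLAG:Ctrl RIP, 11.39 in the IgG RIP and 10.19 in the MKRN1-labelled RIP. Here too the MKRN1-labelled RIP was lowest. The FLAG:MKRN1 input was above the FLAG:Ctrl input, the reverse of Dnmt3l. The IgG RIP was above the FLAG:Ctrl RIP, also the reverse of Dnmt3l, though these 2 RIPs differ in antibody as well as in lysate. The MKRN1-labelled RIP was 2.66-fold below its input (-1.41, the 1.97th percentile of kept genes), 2.30-fold below the IgG RIP (-1.20) and 1.69-fold below the FLAG:Ctrl RIP (-0.76).

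Set 1 of Tet1 (probe set 10369688) had the largest differences of the 9 probe sets. Its signal was 10.09 in the FLAG:Ctrl input, 10.78 in the FLAG:MKRN1 input, 9.63 in the FLAG:Ctrl RIP, 10.14 in the IgG RIP and 7.73 in the MKRN1-labelled RIP. That last array was 8.32-fold below its input, 5.33-fold below the IgG RIP and 3.75-fold below the FLAG:Ctrl RIP. Set 2 (probe set 10369690) was 9.67 and 10.17 in the FLAG:Ctrl and FLAG:MKRN1 inputs, 9.73 and 9.87 in the FLAG:Ctrl and IgG RIPs, and 8.88 in the MKRN1-labelled RIP, 2.44-fold below its input. The smaller of the 2 differences from the control RIPs, called the score (0 where their signs differ), was -1.91 for set 1, -0.85 for set 2 and -0.76 for set 3. The part of the transcript that each set covers was not known from the annotation used.

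The FLAG:MKRN1 input exceeded the other input in all 3 Tet1 sets. The differences were 0.70, 0.50 and 0.32 for sets 1 to 3, or 1.62-fold, 1.41-fold and 1.25-fold. Tet1 was thus the 1 member higher in that input.

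Tet2, which encodes a related oxidase without the CpG-binding CXXC domain of Tet1, differed from it in this respect. It was 7.92 in the FLAG:Ctrl input, 7.52 in the FLAG:MKRN1 input, 8.09 in the FLAG:Ctrl RIP, 7.66 in the IgG RIP and 6.94 in the MKRN1-labelled RIP. Both arrays of FLAG:Ctrl lysate were the highest, as for Dnmt3l, and the MKRN1-labelled RIP was the lowest, as for Tet1. The FLAG:MKRN1 input was 1.32-fold below the FLAG:Ctrl input (-0.40). In the MKRN1-labelled RIP Tet2 was 2.21-fold below the FLAG:Ctrl RIP (-1.14), 1.65-fold below the IgG RIP (-0.72) and 1.49-fold below its input (-0.58).

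Tet3, the third Tet gene, is not one of the 7 and had dim signal. Its 2 probe sets had means of 5.42 and 5.56, below the level filter, with the same value on several arrays.

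Over the 7 members, the central comparison of the MKRN1-labelled RIP with both control RIPs gave differences below 0 in each case. They ran from -1.14 to -0.58 against the FLAG:Ctrl RIP, with a median of -0.83. Relative to IgG they ran from -1.20 to -0.17, with a median of -0.76. The medians of all 11502 kept genes were -0.03 and -0.00, with SDs of 0.57 and 0.55. A difference below 0 from both control RIPs, of any size, was found in 44.4% of kept genes. With the input added, 6 of 7 members (all but Dnmt3l) and 35.9% of kept genes were below both control RIPs and the input. Both comparisons rest on the same MKRN1-labelled array, so they are not independent.

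Few members passed 2-fold (a log2 difference of 1). Against the FLAG:Ctrl RIP it was Tet2, 1 of 7 lower, where 7.11% of kept genes were; 0 were higher, against 1.62%. Against the IgG RIP it was Tet1, 1 of 7 lower against 6.94% of kept genes, and 0 higher against 1.53%. To be called lower, a gene had to lie 2-fold or more below both control RIPs and also below the FLAG:MKRN1 input; the call of higher mirrored this. By this rule 0 of 7 members were called lower, where 5.36% of kept genes were, and 0 higher, where 1.09% were. The share called lower rose to 11.7% of kept genes with a mean signal from 9 to 10 and 10.9% from 10 to 11. These bands hold all members but Tet1 and Tet2, for whose bands the shares were 5.36% and 4.81%. Dnmt1 came nearest with a score of -0.87, followed by Dnmt3a at -0.82, Tet1 and Dnmt3b at -0.76 each, Tet2 at -0.72, Uhrf1 at -0.45 and Dnmt3l at -0.17. Set 1 of Tet1 taken alone met the rule. With every array centred on its median over all probe sets, Dnmt1 and Dnmt3a were called lower, 2 of 7 against 8.42% of kept genes. The same centring put 4 members 2-fold below the FLAG:Ctrl RIP, where 11.6% of kept genes were, and 3 below the IgG RIP, where 10.4% were. At 1.5-fold the rule called 5 members lower (Dnmt1, Dnmt3a, Dnmt3b, Tet1 and Tet2), against 14.4% of kept genes.

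**Figure D2:**
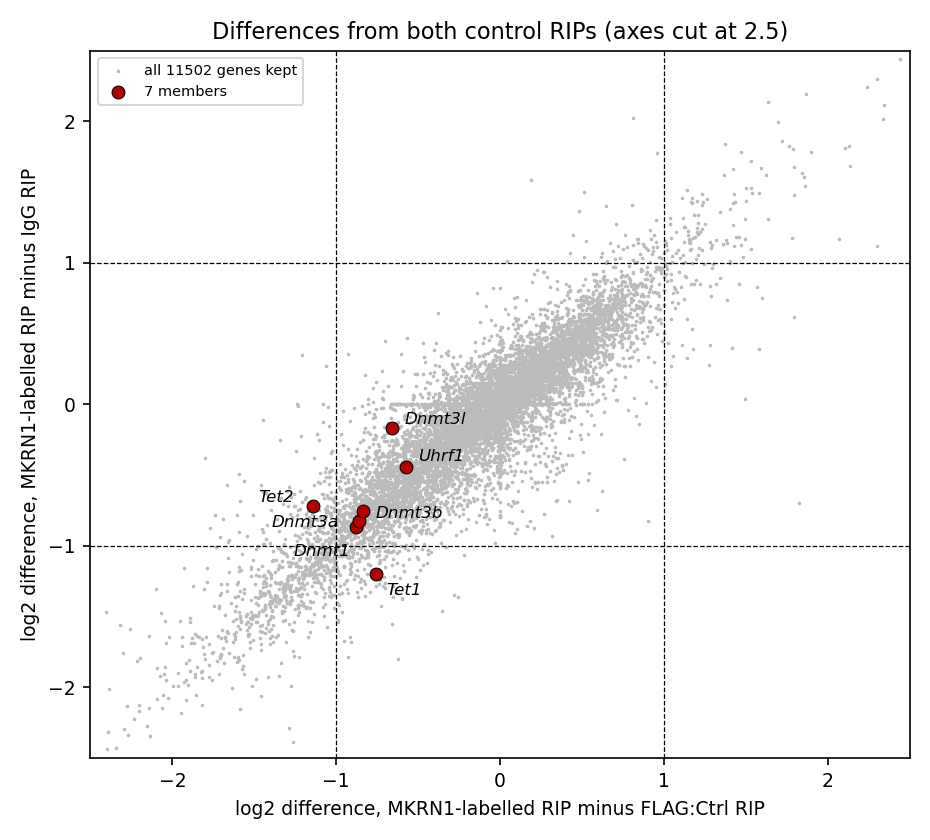
Log2 difference of the MKRN1-labelled RIP from the FLAG:Ctrl RIP (horizontal) and from the IgG RIP (vertical) for all 11502 kept genes (grey) and the 7 members (red); dashed lines mark 2-fold. All 7 members are below 0 on both axes, Tet2 past -1 on the horizontal axis and Tet1 past -1 on the vertical axis, and none past both.

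Over all kept genes the differences moved with signal level. The signal of the MKRN1-labelled RIP had the narrowest spread of the 5 arrays, with an SD of 2.19 against 2.28 to 2.35. Kept genes with a mean signal under 7 had a median difference of 0.09 from the FLAG:Ctrl RIP. In the band from 9 to 10, which holds Dnmt3a, Dnmt3b and Dnmt3l, the median was -0.35 and the lower quartile -0.76. In the band from 10 to 11, which holds Dnmt1 and Uhrf1, they were -0.34 and -0.72. Above 11, where Tet1 lay, they were -0.19 and -0.54, and from 7 to 8, where Tet2 lay, -0.08 and -0.44. Read against its own band, the difference from the FLAG:Ctrl RIP was below the lower quartile for Dnmt1, Dnmt3a, Dnmt3b, Tet1 and Tet2. For Uhrf1 and Dnmt3l it was between the lower quartile and the median. Against the IgG RIP the same genes were below the lower quartile of their bands, Dnmt3b barely, at -0.757 against -0.752. Uhrf1 again lay between, and Dnmt3l, at -0.17, lay above its band median of -0.36. With the trend with signal level removed, the member medians were -0.50 (FLAG:Ctrl RIP) and -0.48 (IgG RIP). The MKRN1-labelled RIP was the lowest of the 5 arrays for 6 of 7 members, for 32.6% of kept genes and for 49.3% of kept genes with a mean of 9 or more.

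**Figure D3:**
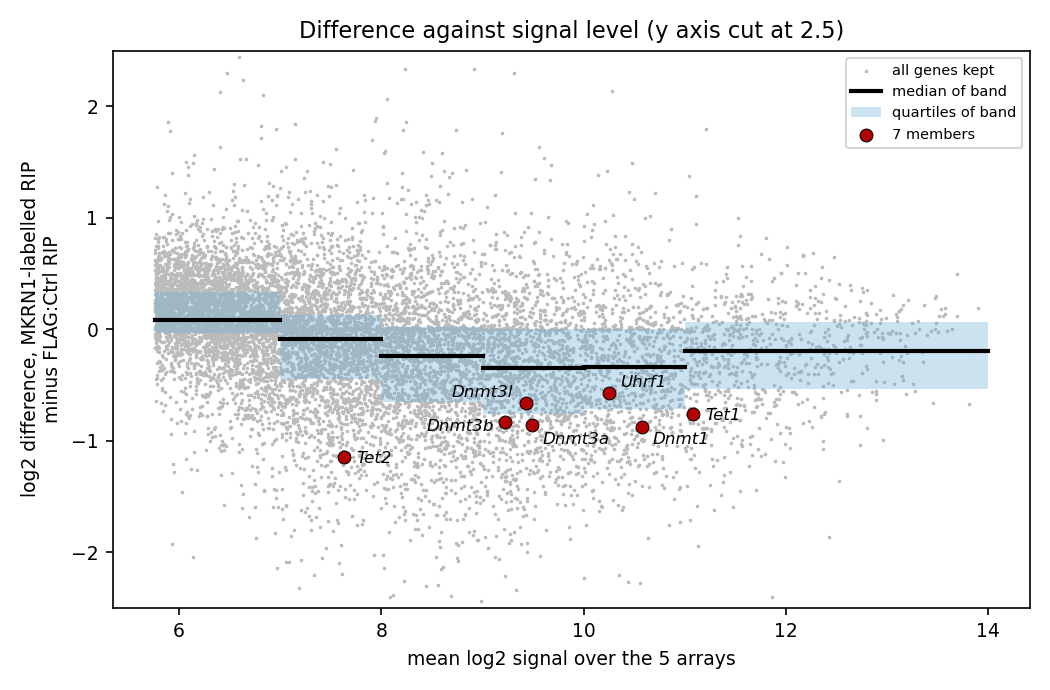
Log2 difference of the MKRN1-labelled RIP from the FLAG:Ctrl RIP against mean log2 signal over the 5 arrays for all kept genes (grey) and the 7 members (red), with the median (black) and quartiles (blue) of 6 bands of signal. The members lie below the median of their bands, and Tet2, at -1.14, lies farthest from it, where the band median is -0.08.

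Gene span also moved with the difference. Kept genes spanning less than 10 kb had a median difference of 0.09 from the FLAG:Ctrl RIP, those of 20 to 50 kb -0.11, those of 50 to 100 kb -0.28 and those of 100 kb or more -0.21. The shares called lower were 1.84%, 6.46%, 10.5% and 8.88% in the same order. The members span from 20.2 kb (Uhrf1) to 112.9 kb (Dnmt3a); Tet1 spans 82.9 kb and Tet2 81.5 kb. Spans are those of the gene with its introns, from RefSeq, and the lengths of the RNAs were not used here. The part of signal level and span in the members' differences was not tested.

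The 3 RIPs can each be set against the input of their own lysate. In the control RIPs the differences of the members from input ran from -0.33 (Tet1) to 0.29 (Dnmt3l) in the FLAG:Ctrl RIP and from -0.21 (Tet1) to 0.50 (Dnmt3l) in the IgG RIP. The medians of 0.02 and 0.00 compare with 0.01 and 0.00 over all kept genes. No member was 2-fold from input in either control RIP, where 0.948% and 1.32% of kept genes were higher and 0.374% and 0.461% lower. In the MKRN1-labelled RIP the differences from input ran from -1.41 (Tet1) to 0.33 (Dnmt3l), with a median of -0.68 against 0.00 over all kept genes. At 2-fold, 1 of 7 members was below its input, Tet1, against 5.51% of kept genes, and 0 were above it, against 2.47%. Taking each RIP relative to its own input before comparing RIPs left Tet1 as the 1 member at least 2-fold below both control RIPs, with a score of -1.08, where 5.31% of kept genes were.

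**Figure D4:**
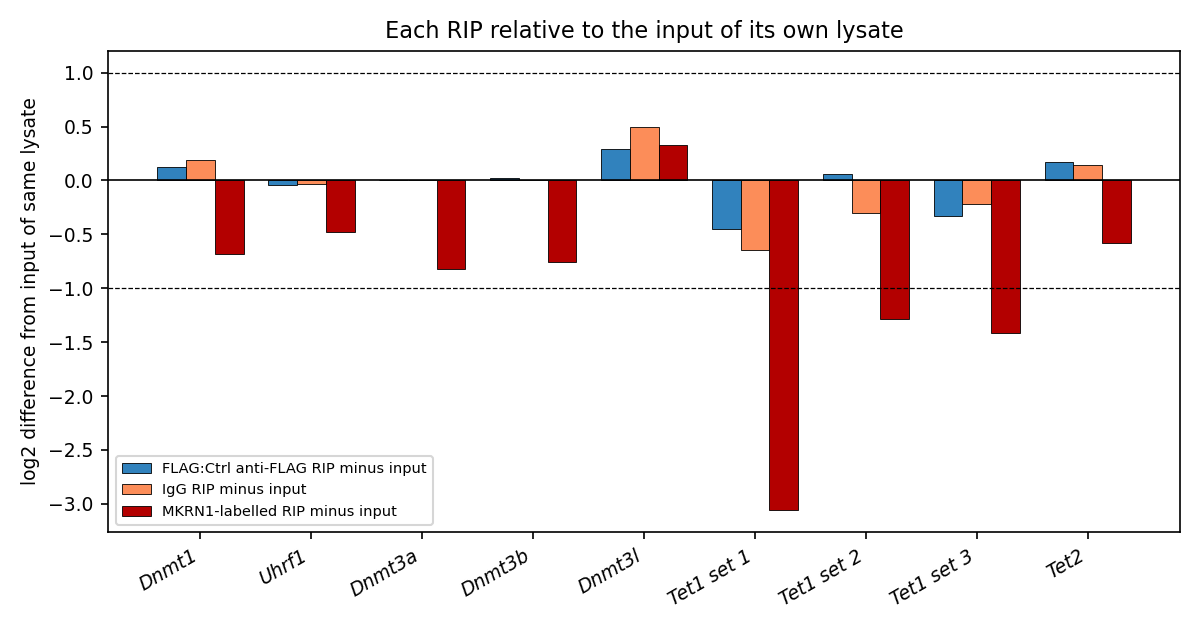
Log2 difference of each RIP from the input of the same lysate for the 9 probe sets; each bar is a difference between 2 arrays and dashed lines mark 2-fold. The bars of the control RIPs stay between -0.64 and 0.50, while those of the MKRN1-labelled RIP are below 0 except for Dnmt3l at 0.33 and reach -3.06 for set 1 of Tet1.

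In the comparison of the inputs, 6 of 7 members were lower in FLAG:MKRN1 lysate, where 47.3% of kept genes were, and 1 was higher, with a median of -0.08 against 0.00 over all kept genes. None was 2-fold apart, where 0.878% of kept genes were higher and 0.791% lower in FLAG:MKRN1 lysate. Between the 2 control RIPs, 0 members were 2-fold apart as well, where 0.174% of kept genes were higher and 0.278% lower in the FLAG:Ctrl RIP. Between the inputs, Dnmt1, Uhrf1, Dnmt3a and Dnmt3b differed by -0.08, -0.14, -0.03 and -0.06. Each is smaller in size than 0.338, the SD of all kept genes between the inputs. Dnmt3l and Tet2 differed between the inputs by more than that SD. Tet1 differed by less than that SD in its brightest probe set, at 0.32. Its other probe sets differed by more than that SD, at 0.70 and 0.50.

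The genes with the most similar profiles were sought for members whose 5 values spanned at least 1 (log2), which were Tet1 and Tet2. The measure was the root mean square difference between profiles over the 5 arrays, each centred on its own mean. Nearest to Tet1 were Mettl2, a tRNA methyltransferase gene, at 0.058 and Wrn, a RecQ helicase gene, at 0.080. Nearest to Tet2 were Jarid2, which encodes a cofactor of Polycomb repressive complex PRC2, at 0.045 and the zinc finger gene Zfp462 at 0.051. Such closeness is common on 5 arrays: 440 kept genes lay within 0.25 of Tet1 and 1358 within 0.25 of Tet2.

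Other genes of the pathway were read against all kept genes, of which 44.4% were below both control RIPs, 5.36% were called lower and 1.09% higher, with median differences of -0.03 (FLAG:Ctrl RIP) and -0.00 (IgG RIP). All 8 listed partners of maintenance methylation were kept and below both control RIPs, with medians of -0.38 and -0.59, and 0 were called. Pcna, the replication clamp gene, was nearest, with differences of -0.99 from the FLAG:Ctrl and -1.16 from the IgG RIP, but its other probe set had a score of -0.31. Uhrf2, a relative of Uhrf1, had a score of -0.70, the DNA ligase gene Lig1 -0.39, and the deacetylase gene Hdac1 -0.68 (-1.26 for its other probe set). After quantile normalization 6 of the 8 were below both control RIPs. With the trend with signal level removed 6 were as well, with medians of -0.21 and -0.34. The median signal of the 8 was 11.4 in the FLAG:Ctrl input, and bright kept genes were lower as a whole. Medians from the FLAG:Ctrl and IgG RIPs were -0.34 and -0.33 in the band from 10 to 11. Above 11 they were -0.19 and -0.21.

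Genes of demethylation and base excision repair were divided. Of 13 kept genes 7 were below both control RIPs (44.4% of all kept genes), and 2 were called lower (5.36% of all) and 0 higher (1.09%), with medians of -0.20 and -0.20 that turned to 0.01 and 0.10 after quantile normalization. Ogt, which encodes the O-GlcNAc transferase that binds Tet proteins, had the lowest score of the 6 pathway lists. It was 10.27 and 10.07 in the FLAG:Ctrl and FLAG:MKRN1 inputs, 9.63 and 9.62 in the FLAG:Ctrl and IgG RIPs, and 7.63 in the MKRN1-labelled RIP, a score of -1.99 (from -2.17 to -1.63 over the scalings and filters). Gadd45b, a stress-response gene linked to demethylation, was called at a score of -1.15. That score is its difference from the IgG RIP, so both arrays behind it hold FLAG:MKRN1 material. Relative to the FLAG:MKRN1 input, Gadd45b differed by 0.84 in the IgG RIP and by -0.31 in the MKRN1-labelled RIP. The inputs themselves were 8.35 with FLAG:Ctrl and 6.64 with FLAG:MKRN1. The part of these differences in the call was not tested. The repair genes Lig3 and Parp1 had scores of -0.89 and -0.81.

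Readers of methylated DNA lay on both sides of the control RIPs. Of 8 kept genes 3 were below both control RIPs (44.4% of all kept genes), with medians of -0.12 and 0.08, and 1 was called lower, where 5.36% of all were. That was Zfp57, whose protein protects imprinted methylation; its score of -1.01 became -0.73 after quantile normalization, -0.86 with arrays centred over the kept genes and -0.71 without the trend with level, which is short of 2-fold. It was 11.43 and 10.55 in the FLAG:Ctrl and FLAG:MKRN1 inputs, so like Dnmt3l it was lower in the FLAG:MKRN1 line. The corepressor gene Trim28, whose product works with Zfp57, had a score of -0.42, and Zbtb33, which encodes the methyl-CpG binding protein Kaiso, -0.75. Mbd3, of the NuRD complex, was above both control RIPs, with a score of 0.29.

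Among 15 kept genes for recruitment and regulation, 9 were below both control RIPs (44.4% of all kept genes) and 1 was called lower (5.36% of all). Setdb1, a histone H3 lysine 9 methyltransferase gene, had a score of -1.47 (from -1.65 to -1.18 over the scalings and filters), with 10.02 in the FLAG:Ctrl RIP, 9.89 in the IgG RIP and 8.43 in the MKRN1-labelled RIP. Sin3a, a corepressor gene whose product binds Tet1, had a score of -0.90, the demethylase gene Kdm1a -0.82 and Ctcf, which encodes an insulator-binding factor, -0.68. The medians of this list were -0.16 and -0.24, and the first was 0.01 with arrays centred over the kept genes.

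For the supply of methyl groups and of the Tet cosubstrate, 6 of 8 kept genes were below both control RIPs (44.4% of all kept genes), with medians of -0.62 and -0.60. The 1 called lower, where 5.36% of all kept genes were, was Mtr, methionine synthase, with a score of -1.32 (-1.17 with arrays centred over the kept genes); with the level filter at the 75th percentile it was not kept. Mthfd1 and Shmt2 of folate metabolism had scores of -0.79 and -0.71, and Idh1, which makes the Tet cosubstrate 2-oxoglutarate, -0.72.

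Germline genes known for promoter methylation were mostly dim: 8 of 13 were kept, and Dazl, Asz1, Brdt, Tex101 and Slc25a31 were below the level filter. None of the 8 was called lower (5.36% of all kept genes) or higher (1.09%), and 5 were below both control RIPs (44.4% of all), with medians of -0.49 and -0.29. Mov10l1, a piRNA pathway gene, had a score of -0.91, Ddx4 -0.48, Stk31 -0.30 and the synaptonemal complex gene Sycp3 -0.14. Mov10l1 and Mael were 2-fold below the FLAG:Ctrl RIP (7.11% of all) and neither was below the IgG RIP by that much. Mov10l1 was called lower after quantile normalization, where 3.61% of kept genes were. With each array centred on its median over all probe sets, Mov10l1, Pcna, Lig3, Kdm1a and Sin3a were called lower, where 8.42% of kept genes were. Relative to input the medians of the 8 in the control RIPs were 0.42 and 0.39, against 0.01 and 0.00 over all kept genes, and 0 were 2-fold from input; Sycp1 was below input in both (-0.45 and -0.28), and Ddx4 (-0.06) and Mael (-0.29) in the IgG RIP. Counts for all 6 lists describe these arrays alone, since no test was possible.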

How the data were processed

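The authors deposited 1 log2 value per probe set and array, 34760 probe sets on 5 arrays; the values, from 2.56 to 14.4, fit a log2 scale. How background was corrected and arrays were normalized is not given in the sources used here. Per the labels' protocols, 10 ng of RNA was used per array after RIPs from 4 mg of protein, with biotin labelling by standard Affymetrix procedures. Samples were grouped by title. The precision is limited by there being 1 array per group.

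Of the probe sets, 21640 had 1 gene symbol in the platform annotation, 1321 several and 11799 none there; 21553 matched RefSeq gene identifiers (GRCm38.p6), which updated symbols. Each gene took its brightest probe set, and genes with a mean at or above 5.76 were kept. Differences of log2 values were computed with pandas 2.3.3 and numpy 2.4.6 in Python 3.11.15. The call rule was run on simulated data only to check that it finds planted shifts. Its noise was set from the spread between the control RIPs, without a trend with signal level, so it gives no error rate for these arrays. Promoters came from RefSeq (GRCm38.p6) and matched all 7 members. Members and lists were chosen with earlier results of these data known. Named genes were all members, up to 4 per list with the largest score and any called, the 2 nearest profiles, and Mkrn1. Thy1, Pax6 and Klf4 were singled out after their values were seen. Some genes of the lists are not reported here. Protein lengths were planned and not used; gene spans replaced them.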

Additional observations from a re-analysis of the deposited data

How the results depend on the processing

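No paired analysis was possible because each group has 1 array and the titles carry no replicate numbers; no array could be left out for the same reason. A value was counted as moved when it changed by more than 0.243, the SD between the control RIPs, and a count when it changed by over 1.5 times. Of 455 values of single members under the alternatives, 38 moved, 34 of them under quantile normalization or removal of the trend with level, and 0 of those past 2-fold changed sign. Many could not move: the alternatives to the level filter could not change any member value, count or median. The median over probe sets could change only the values of Tet1. Quantile normalization and trend removal each moved the differences from both control RIPs for every member except Tet2. Of 192 counts and medians 11 moved, all in the comparisons of the MKRN1-labelled RIP with the control RIPs. The member median against the FLAG:Ctrl RIP was -0.58 after quantile normalization and -0.50 with the trend removed, and against the IgG RIP -0.48 with the trend removed. Centring on all probe sets gave 4 members at least 2-fold below the FLAG:Ctrl RIP (11.6% of kept genes), 3 below the IgG RIP (10.4%) and 2 called lower. Centring on kept genes gave 0 below the FLAG:Ctrl RIP, and quantile normalization and trend removal gave 0 below the IgG RIP. A 1.5-fold threshold gave 5 called lower (14.4% of kept genes) and values relative to own input gave 1. Centring thus went either way: it put the median of all kept genes against the FLAG:Ctrl RIP at -0.23 over all probe sets and 0.14 over kept genes. The share of higher genes among those 2-fold from the FLAG:Ctrl RIP was 18.5% as deposited, 7.49% and 36.6% with these centrings, 32.3% after quantile normalization and 34.3% with the trend removed. With the median over its probe sets, Tet1 was -1.90 from its input in the MKRN1-labelled RIP and 0.70 between the inputs. Removal of the trend, centring on kept genes and gene spans were chosen after seeing the data. The cause of these changes was not tested. Dim signal limits Tet3 and the germline genes.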
